A study of Mus musculus with 24 samples.

Results

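The 10 genes described here are all secreted signals of inflammation: the neutrophil-attracting chemokines Cxcl1, Cxcl2 and Cxcl3, the lymphocyte-attracting chemokine Cxcl10, the chemokines Ccl3 and Ccl4, and the cytokines Il1a, Il1b, Tnf and Il6. They were found as probes outside the control spots whose gene name in the array files is one of these names. The rule found 11 probes on 38 spots, of 41174 probes on 43379 spots. All 10 genes passed the filter on dim probes (Cy3 well above background on at least 3 arrays), which left 24468 genes for testing.

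Female mice of strain C57BL/6j, 6 weeks old, were injected intraperitoneally with an agent or with olive oil, and RNA was prepared from the marrow. The agents were benzo(a)pyrene (BP) and 7,12-dimethylbenz(a)anthracene (DMBA), which are polycyclic aromatic hydrocarbons, and TCDD, the most potent of the chlorinated dioxins. All bind the aryl hydrocarbon receptor, which induces the enzymes of the Cyp1 family. The labels give 1 dose, 50 mg/kg, for every agent, which for TCDD is far above the doses usual in mice, so that the TCDD dose is uncertain. Wild-type marrow was taken 6 h after BP (2 arrays), 12 h after DMBA (3 arrays) and 12 h after TCDD (3 arrays), with oil controls (3 arrays). Cyp1b1-null marrow was taken 12 h after DMBA (2 arrays) or after oil (2 arrays). Cyp1a1-null marrow was taken 12 h after BP (3 arrays) or after oil (3 arrays). Marrow null for both genes, called DKO in the labels, was taken 12 h after BP (2 arrays) or after oil (1 array). No group received BP for 12 h in the wild type or for 6 h in a knockout, so in any comparison of BP at 6 h with a 12 h group the time differs together with the agent or the genotype. The labels give no time for the oil controls. Each of the 24 two-colour arrays carried one sample in Cy3 (green) and pooled RNA of oil-treated wild-type marrow in Cy5 (red), with no dye swap. A description common to the samples reads that 9 samples were pooled, without saying which, and nothing says that replicates came from separate mice, so the p-values measure only the spread between these samples.

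The chemokines of this set are secreted proteins that draw leukocytes along a gradient. Cxcl1, Cxcl2 and Cxcl3 bind Cxcr2 on neutrophils, and Cxcl10 binds Cxcr3 on activated T cells and NK cells. Il1a and Il1b both bind the interleukin-1 receptor, Tnf binds the tumour necrosis factor receptors, and Il6 signals through its receptor and gp130. Macrophages and other cells switch most of these genes on within hours of a danger or microbial signal, largely through NF-kB, and Cxcl10 is also a classic interferon-stimulated gene. In marrow these proteins act on the release of neutrophils and on the output of progenitor cells.

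The promoters of Cxcl1, Cxcl2, Cxcl3, Il6 and Cxcl10 are printed because these genes, all on chromosome 5, share a motif in front of the start. In GRCm38.p6, Cxcl3 spans chr5:90786101-90788093, Cxcl1 spans chr5:90891245-90893121, Cxcl2 spans chr5:90903899-90905938, Cxcl10 spans chr5:92346638-92348889 and Il6 spans chr5:30013114-30019975. Ccl3 (chr11:83647843-83649378) and Ccl4 (chr11:83648624-83664683) have annotated intervals that overlap, and Il1a (chr2:129299609-129310186) lies near Il1b (chr2:129364569-129371164). Tnf is at chr17:35199367-35202007. Promoter sequences from RefSeq, build GRCm38.p6, were matched for 9 of the 10 genes. The 250 bases before the start were searched on both strands. The NF-kB consensus was found in those 5 of the 9 genes, against 7.25% of 32851 promoters. GAAANNGAA, a form of the interferon response element, was found in Cxcl10 and Ccl3, against 7.13% of promoters. GCGTG, the core that the aryl hydrocarbon receptor complex binds, was found in Cxcl2 and Cxcl10, against 28.2% of promoters, and overlaps neither of the other motifs there. TATAAA was found in Cxcl3, Il1a, Il1b and Tnf, against 12.4% of promoters. The sequences end at the base before the annotated start and are given 5′ to 3′ on the strand of the gene. Capitals mark matches of the NF-kB consensus on either strand, some of them overlapping, and in Cxcl10 also the match of GAAANNGAA. A match is a run of letters, not a measured binding site.
Cxcl1, chr5:90891125-90891244, plus strand: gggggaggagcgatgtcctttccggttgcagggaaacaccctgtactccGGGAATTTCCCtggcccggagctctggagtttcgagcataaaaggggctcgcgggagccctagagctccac
Cxcl2, chr5:90903779-90903898, plus strand: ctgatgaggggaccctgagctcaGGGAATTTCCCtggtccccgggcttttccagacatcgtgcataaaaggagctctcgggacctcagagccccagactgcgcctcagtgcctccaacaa
Cxcl3, chr5:90785981-90786100, plus strand: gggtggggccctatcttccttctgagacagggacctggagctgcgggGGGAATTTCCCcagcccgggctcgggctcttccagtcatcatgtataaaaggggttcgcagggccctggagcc
Il6, chr5:30012994-30013113, plus strand: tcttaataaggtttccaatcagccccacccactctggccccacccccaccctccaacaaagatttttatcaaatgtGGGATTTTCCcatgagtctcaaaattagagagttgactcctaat
Cxcl10, chr5:92348890-92349129, minus strand: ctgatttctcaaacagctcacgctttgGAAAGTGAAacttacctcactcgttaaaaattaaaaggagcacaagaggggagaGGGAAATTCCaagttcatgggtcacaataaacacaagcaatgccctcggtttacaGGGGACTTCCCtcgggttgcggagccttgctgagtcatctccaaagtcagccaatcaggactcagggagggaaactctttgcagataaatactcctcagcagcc
GGGAATTTCC begins 71 bases before the start of Cxcl1, 97 before Cxcl2 and 73 before Cxcl3.

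Values are log2 ratios of the sample (Cy3) over the pooled oil-treated wild-type marrow (Cy5), so 0 is the level of the pool and positive values lie above it. Differences between groups came from limma, a linear model fitted across all genes, with Benjamini-Hochberg adjustment over all genes tested. A gene is said to be called, to have risen or to have fallen when that adjusted p was under 0.05, and differences are given ± the standard error (SE). Between 38.2% and 84.8% of probes were well above background in Cy3 on an array, and no member was saturated on any array. Cyp1a1 was not well above background on any of the 9 Cyp1a1-null and DKO arrays, while in the wild type its ratio was 1.71 to 1.94 after BP, 1.76 to 1.93 after DMBA and 0.15 to 1.55 after TCDD, against -0.11 to 0.48 in oil. In Cyp1b1-null marrow it was 0.04 to 0.23 after DMBA, against -0.01 to 0.02 in oil. The Cyp1b1 probe was above background on every Cyp1b1-null and DKO array. Its position relative to the deleted part is not known here, so it checks nothing.

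Replicate 1 of the wild-type oil group stood apart from the other 23 arrays, and the fits below were made with and without it. The standard deviation of all log2 ratios was 1.26 on that array, against 0.20 to 0.67 on the others. The 5 measured genes of a list of liver markers, kept for tissue carried over, averaged 7.26 in Cy5, on a log2 scale where 0 is the array's 75th percentile, against -6.59 to -1.70 on the other arrays. In Cy3 they averaged 3.99, against -6.57 to -2.03. The Cy5 level of the 11 neutrophil markers was 1.47, against 4.80 to 6.29, while their Cy3 level, 6.14, lay inside the range of 5.11 to 6.65 on the others. For the 10 inflammatory genes the mean Cy5 level was -1.81, against -0.95 to 0.27 on the other arrays, and the mean Cy3 level was 1.23, inside the range of -0.06 to 3.05. Single genes were also higher in Cy3 on that array than on oil replicates 2 and 3, as with Ccl3 (5.48, against 3.35 and 3.58), Il1b (5.80, against 4.03 and 4.56) and Tnf (1.61, against -0.37 and 0.15). These single-channel levels are signals processed by the scanner software. Its background method had code 5 on wild-type oil replicate 1 and both BP arrays, and code 7 on oil replicates 2 and 3. The effect of that setting on these levels was not tested. The labels name the same pool for the Cy5 channel of wild-type oil replicate 1 as for the other arrays. However, the Spearman correlation of its Cy5 signals with those of the other arrays had a median of 0.794, against 0.859 to 0.970 for the others.

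**Figure D1:**
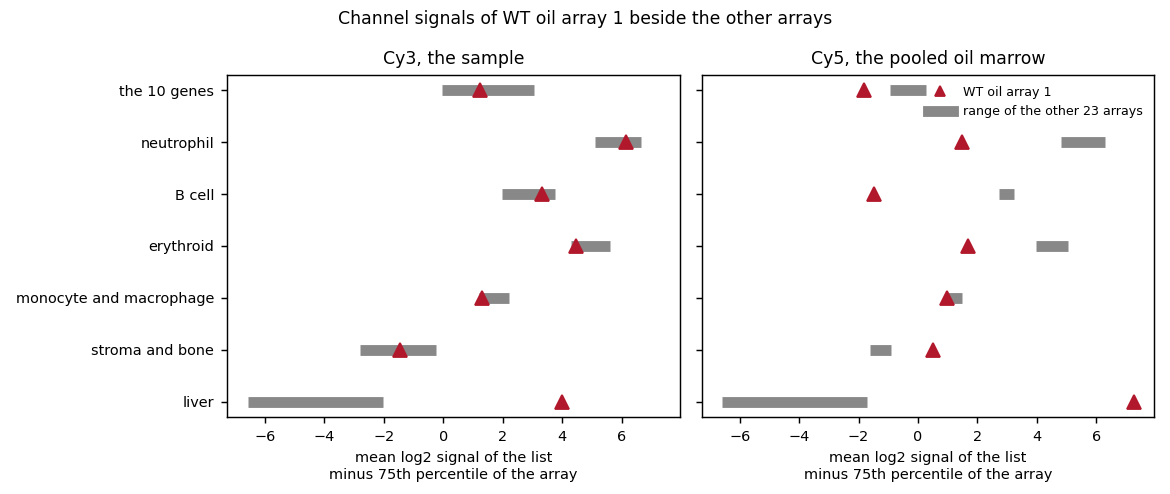
Mean level of each gene list on a log2 scale where 0 is the 75th percentile of the array, in Cy3 (sample) and Cy5 (pool). The triangle is replicate 1 of the wild-type oil group and the grey bar is the range of the other 23 arrays; in Cy5 the triangle lies far above the bar for liver genes and below it for neutrophil, B cell and inflammatory genes.

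BP-treated marrow at 6 h had the highest mean of the 10 groups for 8 of the genes and the second highest, after the single DKO oil array, for Cxcl1 and Il6. Against wild-type oil marrow, 3 genes rose with all 24 arrays in the fit, by 2.44 ± 0.26 (log2) for Il1a, 2.65 ± 0.32 for Cxcl10 and 1.79 ± 0.40 for Cxcl3. The Cxcl3 call was lost under 24 other settings and kept under 13, while Il1a was kept under 33 and Cxcl10 under 35. Of all genes tested, 0.192% were called higher in that fit. Without wild-type oil replicate 1, 8 genes rose, by 1.78 ± 0.32 (Ccl3) to 3.83 ± 0.55 (Cxcl2), against 1.5% of all genes. Il1b and Cxcl1 were called in neither fit. The median difference over the 10 genes was 1.54 with all arrays and 2.19 without that array, against 0.01 and 0.02 over all genes.

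**Figure D2:**
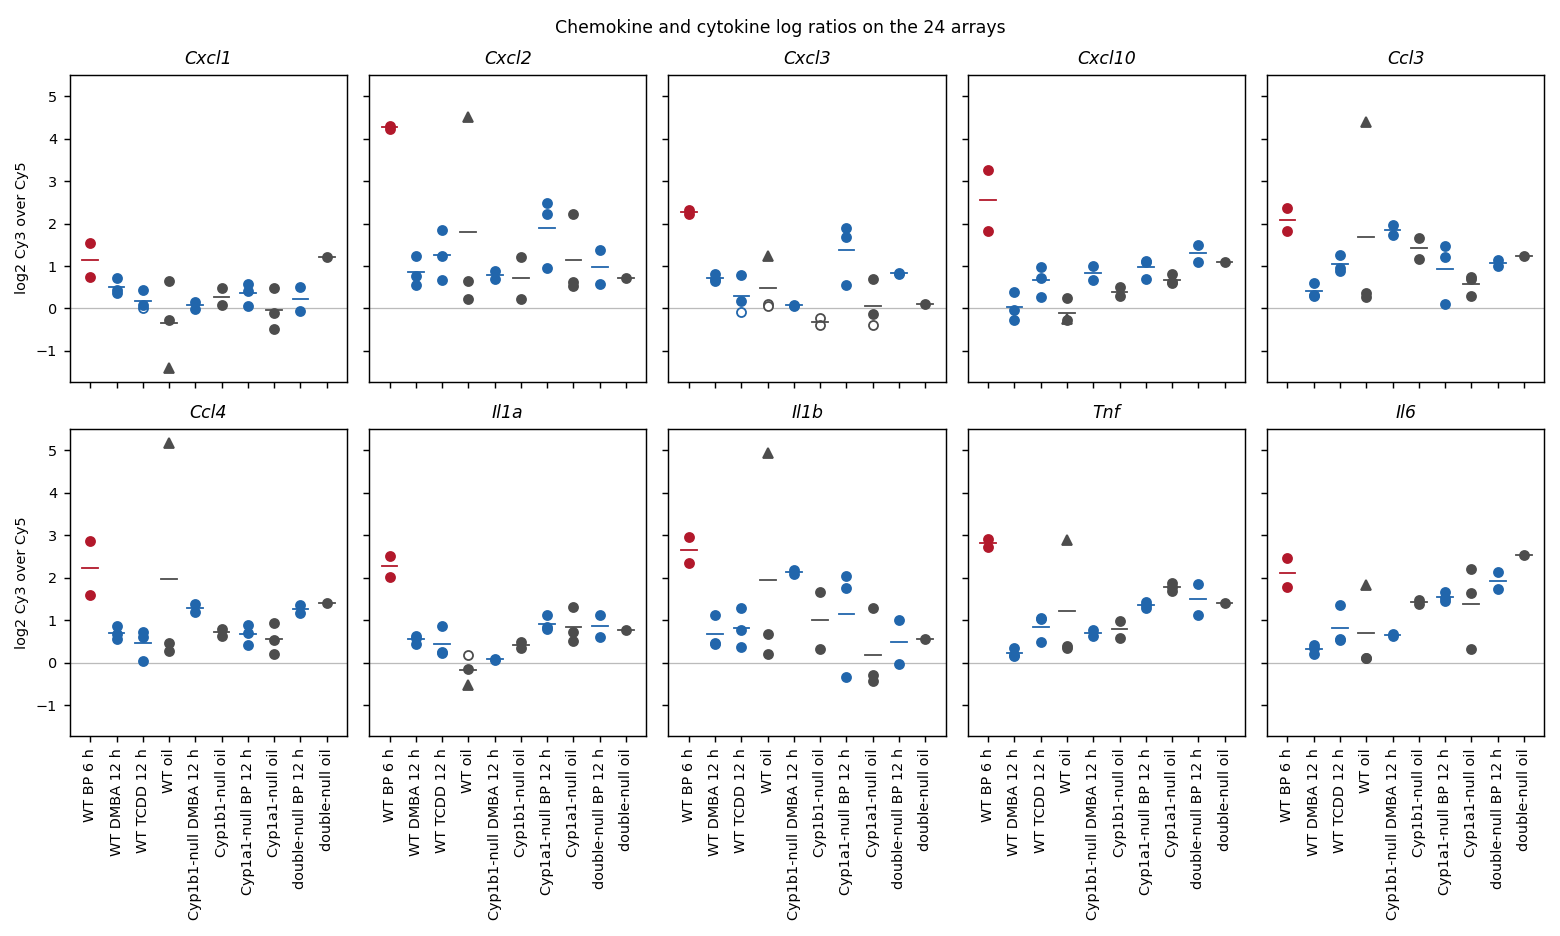
Log2 ratio over the pool for each gene on each array, with BP at 6 h in red, 12 h treatments in blue and oil groups in grey. The triangle is wild-type oil replicate 1, open points were not well above background in Cy3 and bars are group means; for 8 of the 10 genes both BP points lie above every 12 h point.

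Cxcl2, a strong attractant of neutrophils, had ratios of 4.31 and 4.23 after BP at 6 h, against 4.52, 0.23 and 0.64 on the wild-type oil arrays. The BP arrays were close to each other, and the only other array near them was wild-type oil replicate 1. The difference from oil was 2.47 ± 0.91 with all arrays (adjusted p = 0.218) and 3.83 ± 0.55 without that replicate (adjusted p = 0.00212). By the Cy3 signal alone, on the 75th-percentile scale, Cxcl2 stood at 2.84 and 2.72 after BP and at 2.29, -1.40 and -1.32 in oil, so wild-type oil replicate 1 was also high in its own channel. The software's background method was the same on that replicate and the BP arrays and differed on oil replicates 2 and 3. Its part in this Cy3 contrast was not tested.

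Cxcl3, a close relative of Cxcl2, had ratios of 2.22 and 2.31 after BP, against 1.24, 0.12 and 0.06 in oil. It was below background in Cy3 on oil replicates 2 and 3, so the contrast with those is a bound, at least 4.29-fold higher after BP. The bound sets the BP mean against the lowest signal above background on each oil array, and the fitted difference was 2.17 ± 0.36 (adjusted p = 0.00495). With all arrays it was 1.79 ± 0.40 (adjusted p = 0.0476). Both BP arrays lay above all 3 oil arrays.

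Cxcl1, also a neutrophil attractant, had ratios of 1.54 and 0.73 after BP, against -1.39, -0.27 and 0.64 in oil. The groups did not overlap, but the lower BP array lay just above the highest oil array. The difference was 1.47 ± 0.42 with all arrays (adjusted p = 0.115) and 0.95 ± 0.33 without oil replicate 1 (adjusted p = 0.125), and the call failed in both.

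Cxcl10, the attractant of T and NK cells, had ratios of 3.26 and 1.84 after BP, against -0.26, -0.28 and 0.25 in oil. Oil replicate 1 did not stand apart in this ratio. The rise was 2.65 ± 0.32 with all arrays (adjusted p = 0.00287) and 2.56 ± 0.35 without that replicate (adjusted p = 0.00161). Both BP arrays lay above all 3 oil arrays, though far apart from each other.

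Ccl3, which draws monocytes and T cells, had ratios of 2.36 and 1.82 after BP, against 4.40, 0.26 and 0.36 in oil. Ccl4, its neighbour with similar targets, had 2.87 and 1.59 after BP, against 5.18, 0.47 and 0.28 in oil. In both ratios, oil replicate 1 was above the BP arrays and the other oil arrays were below them. By Cy3 alone oil replicate 1 stood at 5.48 for Ccl3, between the BP arrays at 5.79 and 5.00. For Ccl4 it stood at 3.49 in Cy3, below the BP arrays at 5.60 and 4.22. The differences in ratio with all arrays were 0.42 ± 0.81 for Ccl3 and 0.25 ± 0.93 for Ccl4 (adjusted p = 0.835 and 0.92). Without oil replicate 1 they were 1.78 ± 0.32 (adjusted p = 0.00643) and 1.86 ± 0.31 (adjusted p = 0.00517).

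Il1a, an interleukin-1 that acts as an alarm signal from damaged cells, had ratios of 2.52 and 2.02 after BP, against -0.53, -0.15 and 0.18 in oil. The groups were separate on every array, and oil replicate 1 was the lowest. The probe was well above background on 22 of 24 arrays in Cy3, not on oil replicate 3, and on 19 in Cy5. The rise was 2.44 ± 0.26 with all arrays (adjusted p = 0.00106) and 2.26 ± 0.26 without that replicate (adjusted p = 0.000686). Il1a is the one gene of the set with 2 probes. The second probe gave a smaller rise, 1.48 ± 0.27 (adjusted p = 0.0206), and the ratios of both probes had a Pearson correlation of 0.90 over the 24 arrays.

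Il1b, the secreted interleukin-1 of activated myeloid cells, had ratios of 2.96 and 2.34 after BP, against 4.94, 0.21 and 0.67 in oil. In this ratio oil replicate 1 was above both BP arrays and the other oil arrays were far below them. By Cy3 alone oil replicate 1 stood at 5.80, below the BP arrays at 6.81 and 6.02. The difference in ratio was 0.72 ± 1.04 with all arrays (adjusted p = 0.772) and 2.22 ± 0.68 without that replicate (adjusted p = 0.0774). Its interval without the replicate ran from 0.78 to 3.65, and its ratios also spread widely within other groups, as in Cyp1a1-null marrow 12 h after BP at 1.76, 2.05 and -0.35.

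Tnf, a master inducer of inflammation, had ratios of 2.90 and 2.71 after BP, against 2.90, 0.35 and 0.39 in oil. In this ratio oil replicate 1 equalled the BP arrays, and the other oil arrays lay far below. By Cy3 alone Tnf stood at 3.95 and 3.64 after BP and at 1.61 on oil replicate 1. Its Cy5 level on that replicate was -2.02, against -0.82 to 0.95 on the other arrays. The difference in ratio was 1.60 ± 0.50 with all arrays (adjusted p = 0.151). Without that replicate it was 2.44 ± 0.21, with an adjusted p of 4.04e-05. Il6, which drives the acute phase response, had ratios of 2.47 and 1.77 after BP, against 1.83, 0.12 and 0.11 in oil. By Cy3 alone Il6 stood at 1.76 and 1.04 after BP and at -0.29 on oil replicate 1. The difference in its ratio was 1.43 ± 0.49 with all arrays (adjusted p = 0.184) and 2.00 ± 0.41 without oil replicate 1 (adjusted p = 0.0129). Il1b, Tnf and Il6 were each printed in 10 spots on an array, and the median spread between those spots was 0.105, 0.125 and 0.115 (SD, log2). On the BP arrays it was 0.174 and 0.186 for Il1b, 0.236 and 0.247 for Tnf, and 0.213 and 0.211 for Il6. This spread lies within an array and does not measure that between samples.

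**Figure D3:**
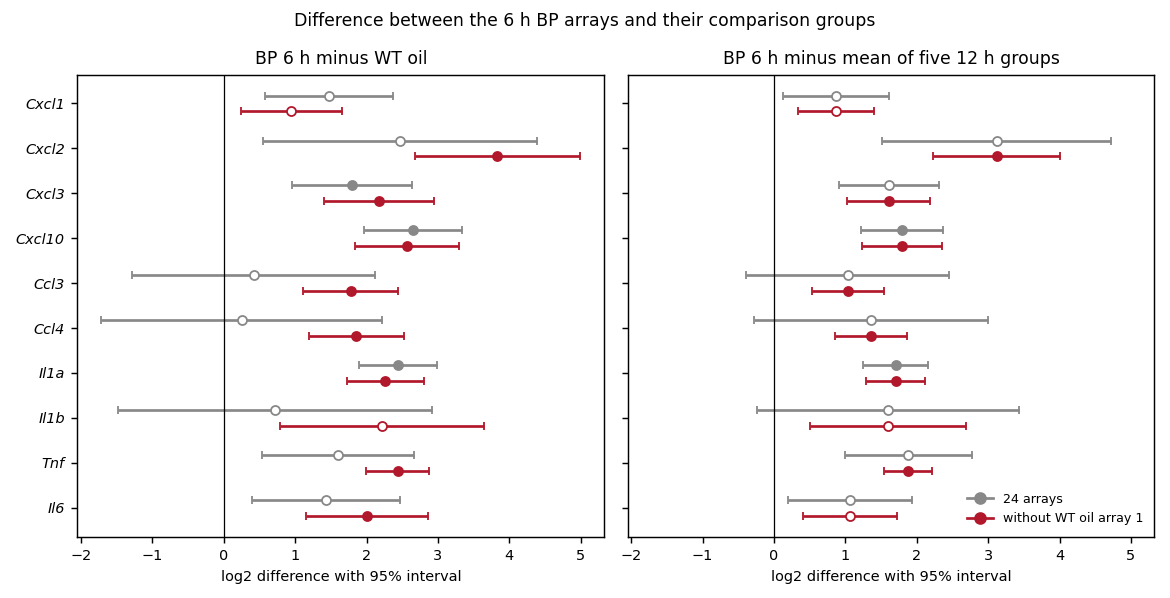
Log2 difference of BP at 6 h from wild-type oil and from the mean of the 12 h groups, with 95% intervals, in the fit of all 24 arrays and in the fit without wild-type oil replicate 1. Filled points were called; 3 and 8 genes were called against oil and 2 and 7 against the 12 h groups.

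Both BP arrays were above all 3 oil arrays for 4 of the 10 genes, against 10.6% of all genes. They were above oil replicates 2 and 3 for all 10 genes, against 23.1% of all genes. Wild-type oil replicate 1 was above each of the other 21 arrays outside the BP group for Cxcl2, Ccl3, Ccl4, Il1b and Tnf, that is 5 of 10 genes, against 21.3% of all genes. In bulk marrow RNA, fewer cells of a type and less RNA per cell cannot be told apart, and the same holds for more.

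Both BP arrays were hybridised on 1 slide that held no other array, so slide and BP treatment cannot be told apart. Log2 ratios of arrays on the same slide were more alike: the mean Pearson correlation over genes was 0.667 for 11 pairs of different groups on one slide, against 0.220 for 246 pairs of different groups on different slides. For pairs of the same group it was 0.745 on the same slide (12 pairs) and 0.215 on different slides (7 pairs). By these means, replicates on different slides were no more alike than arrays of different groups on different slides. Part of those 7 pairs include wild-type oil replicate 1, which stood apart, and no mean without it is given here. The values therefore do not show whether group had an effect across slides. With slide as a random block (duplicateCorrelation, consensus correlation 0.821), 0 of the 10 genes and 0 of all genes were called against oil by limma, and 4 of the 10 had an unadjusted p below 0.05. Without oil replicate 1 the block (correlation 0.567) left Tnf called, at 2.41 ± 0.34 (adjusted p = 0.028), and 2 of all genes in total. Il1a stood at 2.25 ± 0.41 (adjusted p = 0.0777) and Cxcl2 at 3.75 ± 0.81 (adjusted p = 0.158) in that fit.

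Against the mean of the 5 groups treated for 12 h, all 10 genes had higher ratios after BP at 6 h, with a median difference of 1.60, against -0.03 over all genes. Il1a (1.70 ± 0.21, adjusted p = 0.00273) and Cxcl10 (1.79 ± 0.27, adjusted p = 0.0112) were called with all arrays, against 0.143% of all genes called higher. The second Il1a probe gave 1.08 ± 0.22 there and was not called (adjusted p = 0.056). Without wild-type oil replicate 1, which enters here only through the estimate of the spread, 7 were called, against 2.05% of all genes. They were Tnf, Il1a, Cxcl2, Cxcl10, Cxcl3, Ccl4 and Ccl3. Cxcl2 had the highest difference, 3.12 ± 0.42 (adjusted p = 0.000866), and Ccl3 the lowest of the 7, 1.03 ± 0.24 (adjusted p = 0.022). Il6 (1.07 ± 0.31, adjusted p = 0.0581), Cxcl1 (0.87 ± 0.25, adjusted p = 0.0595) and Il1b (1.60 ± 0.52, adjusted p = 0.0871) missed the threshold. Leaving out BP replicate 1 left limma with 0 of the 10 (5 had an unadjusted p below 0.05), and leaving out oil replicate 2 or 3 left 4. With slide as a random block limma called 0 with all arrays and 0 without oil replicate 1, although 5 and 7 had an unadjusted p below 0.05.

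On single arrays, both BP values lay above all 13 arrays of the 12 h groups for 8 of the 10 genes, against 1.89% of all genes. The exceptions were Ccl3 and Il6. The lower BP value of Ccl3 was 1.82, with 1.74 and 1.96 in Cyp1b1-null marrow 12 h after DMBA. For Il6 it was 1.77, with 2.12 and 1.74 in DKO marrow 12 h after BP.

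The 12 h groups taken one at a time gave differences of the same sign for every gene. These comparisons share the BP arrays. Against wild-type DMBA marrow, Cxcl10 (2.52 ± 0.32) and Il1a (1.73 ± 0.26) were called with all arrays, against 0.0245% of all genes, and 8 genes were called without oil replicate 1, against 0.593%. Against wild-type TCDD marrow, Cxcl10, Il1a and Cxcl3 were called, against 0.433%, and 8 genes without that replicate, against 3.91%. In both comparisons Cxcl1 and Il1b were the 2 genes not called in the fit without that replicate. With wild-type oil replicate 1 kept in, the count against DMBA marrow was 0 without BP replicate 1, DMBA replicate 1 or DMBA replicate 2 and 1 without BP replicate 2, and the count against TCDD marrow was 0 without BP replicate 1 and 1 without TCDD replicate 1.

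Against Cyp1b1-null marrow with DMBA, Cxcl10, Il1a and Cxcl3 were called with all arrays, against 0.176% of all genes, and 6 without oil replicate 1, against 1.81%. Ccl3 differed by 0.24 ± 0.32 there and Il1b by 0.53 ± 0.68 in the fit without that replicate, with Il1b ratios of 2.96 and 2.34 in BP marrow and 2.08 and 2.17 in the DMBA-treated knockout. Against Cyp1a1-null marrow with BP for 12 h, Il1a alone was called (1.36 ± 0.26), against 0.135% of all genes, and 6 genes without oil replicate 1, against 3.03%. Against DKO marrow with BP for 12 h, Il1a alone was called (1.41 ± 0.28), against 0.192%, and 5 genes without oil replicate 1, against 2.81%. The Il1a call against Cyp1a1-null marrow was lost under 18 other settings and kept under 19, and that against DKO marrow was lost under 23 and kept under 14. Both were lost without BP replicate 1, DMBA replicate 1 or 2, any Cyp1b1-null array, or Cyp1a1-null BP replicate 1 or 2. The call against DKO marrow was also lost without TCDD replicate 2, Cyp1a1-null oil replicate 3 or either DKO BP array. Against Cyp1b1-null DMBA marrow 1 gene was left called without BP replicate 1. The Il6 difference from DKO marrow was 0.19 ± 0.41, with an interval of -0.67 to 1.05.

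Within the wild type, no gene of the set was called after DMBA for 12 h. Tnf had ratios of 0.15, 0.17 and 0.35 after DMBA and 2.90, 0.35 and 0.39 in oil. Il1a had 0.44, 0.57 and 0.63 after DMBA, against -0.53, -0.15 and 0.18 in oil, and its difference without oil replicate 1 was 0.53 ± 0.23. All 3 DMBA arrays were above all oil arrays for Il1a, but the share of all genes separated in this way was not counted. The count of calls was 0 of 10 by limma in both fits, against 0% and 0.0981% of all genes, with 3 genes at an unadjusted p under 0.05 with all arrays and 1 without oil replicate 1. DMBA replicates 1 and 2 and oil replicate 2 shared a slide, and within it the differences ran from -0.19 (Tnf) to 0.67 (Cxcl1).

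TCDD at 12 h gave no call in the set either, with or without wild-type oil replicate 1. This depends on the processing: no background subtraction, processed signals and Cy3 alone gave calls for TCDD against oil, as counted further below. Cxcl10 had ratios of 0.28, 0.72 and 0.98 after TCDD, against -0.26, -0.28 and 0.25 in oil, and was 0.68 ± 0.32 higher without oil replicate 1 (adjusted p = 0.193). All TCDD arrays were above all oil arrays for Cxcl10. The same held for Il1a, at 0.21, 0.25 and 0.86 after TCDD, against -0.53, -0.15 and 0.18 in oil. Il1a was well above background in Cy3 on 2 of the 3 TCDD arrays. The share of all genes separated in this way was not counted. Ccl3 had 0.89, 1.27 and 0.96, against 4.40, 0.26 and 0.36 in oil, with a difference of 0.73 ± 0.29 without oil replicate 1 (adjusted p = 0.125). The limma counts were 0 of 10 in both fits, against 2.12% and 6.17% of all genes, with 2 and 3 genes at an unadjusted p under 0.05.

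Set directly against each other, DMBA and TCDD marrow differed in no gene of the set with all arrays, against 0.646% of all genes called, and 1 of the 10 had an unadjusted p under 0.05. Without oil replicate 1, Tnf was lower after DMBA by 0.62 ± 0.17 on the log2 scale (adjusted p = 0.0386), against 1.83% of all genes called lower. Its ratios were 0.15, 0.17 and 0.35 after DMBA, against 0.48, 1.03 and 1.04 after TCDD. The arrays did not overlap, but the share of all genes without overlap was not counted.

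In the knockouts, treatment for 12 h changed no gene of the set past the threshold relative to the same genotype in oil. This held with and without wild-type oil replicate 1, while some other settings gave calls, as counted further below. After DMBA in Cyp1b1-null marrow 0 of 10 were called by limma, against 0.0245% of all genes with all arrays and 7.49% without wild-type oil replicate 1, and none had an unadjusted p under 0.05. The highest difference was that of Il1b, 1.13 ± 0.68 without that replicate, from ratios of 2.08 and 2.17 after DMBA, against 1.66 and 0.32 in oil. Cxcl3 was below background on both oil arrays and was at least 1.32-fold higher after DMBA. After BP in DKO marrow 0 of 10 were called, against 0.282% and 0.519% of all genes, with 0 and 1 genes at an unadjusted p under 0.05. That comparison rests on 1 oil array, which is assumed to vary like the other groups.

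In Cyp1a1-null marrow, Cxcl3 had ratios of 1.90, 1.69 and 0.54 after BP, against 0.70, -0.12 and -0.38 in Cyp1a1-null oil marrow, and Cxcl2 had 2.49, 2.22 and 0.95, against 2.24, 0.63 and 0.53. The Cxcl3 difference was 1.31 ± 0.35 with all arrays (adjusted p = 0.202) and 1.31 ± 0.30 without wild-type oil replicate 1 (adjusted p = 0.0717). The count was 0 of 10 by limma, against 0.0327% and 0.155% of all genes, with 1 and 2 genes at an unadjusted p under 0.05. Without Cyp1a1-null BP replicate 3 it was 1, while 3634 of all 24468 genes were called. That array shared a slide and a software version with the 3 oil arrays of its genotype, while the other BP arrays did not, and within that slide the Cxcl3 difference was 0.48 and the Cxcl2 difference -0.19.

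Oil-treated knockout marrow was set against oil-treated wild-type marrow to ask what the loss of the enzymes alone did. Tnf ratios were 1.88, 1.69 and 1.79 in Cyp1a1-null marrow, against 2.90, 0.35 and 0.39 in the wild type. The 3 knockout arrays lay close together and well above wild-type replicates 2 and 3, but below replicate 1. Il6 had 0.31, 2.20 and 1.63, against 1.83, 0.12 and 0.11, and Il1a had 1.30, 0.50 and 0.73, against -0.53, -0.15 and 0.18. Only Il1a was called with all arrays (1.01 ± 0.23, adjusted p = 0.0284), against 1.05% of all genes. Without Cyp1a1-null oil replicate 1 or 3 even that call was lost. Without wild-type oil replicate 1, Tnf (1.42 ± 0.19, adjusted p = 0.00053), Il6 (1.27 ± 0.37, adjusted p = 0.0466) and Il1a (0.83 ± 0.23, adjusted p = 0.0395) rose, against 3.22%. All 3 Cyp1a1-null oil arrays shared a slide that held no wild-type array and were read with a later version of the scanner software than the wild-type arrays, so genotype, slide and software cannot be told apart. With slide as a random block and without that replicate, limma called 0 of the 10 (3 had an unadjusted p below 0.05) and Tnf stood at 1.39 ± 0.30 (adjusted p = 0.0777).

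Il6 was high in oil-treated DKO marrow, with a ratio of 2.54 on its 1 array, against 1.83, 0.12 and 0.11 in the wild type. With all arrays no gene of the set was called, against 1.57% of all genes, and 4 had an unadjusted p under 0.05. Once wild-type oil replicate 1 was left out, Il6 (2.43 ± 0.50, adjusted p = 0.0117) and Tnf (1.03 ± 0.26, adjusted p = 0.026) passed the threshold as higher in DKO marrow, against 3.09% of all genes. The spread behind these values comes from the other groups, since the lone DKO oil array is assumed to vary like them. The Tnf difference was 0.19 with all arrays and turned to -0.24 and -0.22 without wild-type oil replicate 2 or 3. With slide as a random block and without replicate 1, neither was called (Il6 adjusted p = 0.131, Tnf adjusted p = 0.201), and the DKO arrays share a slide that holds no wild-type array. Leaving out wild-type oil replicate 3 gave 1 called gene.

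In oil-treated Cyp1b1-null marrow Il6 had ratios of 1.48 and 1.37, against 1.83, 0.12 and 0.11 in the wild type, and Ccl3 had 1.65 and 1.18, against 4.40, 0.26 and 0.36. With all arrays no gene of the set was called, against 15.4% of all genes, and 1 had an unadjusted p under 0.05. In the fit without wild-type oil replicate 1, Ccl3 (1.10 ± 0.32, adjusted p = 0.0155) and Il6 (1.31 ± 0.41, adjusted p = 0.0233) passed the threshold, 2 of 10 against 17.3% of all genes called higher, a share near the background. The Ccl3 direction rests on that array: the difference was -0.26 with all arrays, and 0.018 by Cy3 alone without it. Both Cyp1b1-null oil arrays lay on a slide with no wild-type array, and with slide as a random block in the same fit neither gene was called (Ccl3 0.67, adjusted p = 0.273, and Il6 1.25, adjusted p = 0.209). Il6 was thus the gene called in all 3 knockout oil groups without that replicate. These comparisons share the wild-type oil arrays.

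The response to BP at 6 h in the wild type was set against that to BP at 12 h in Cyp1a1-null marrow, each relative to oil of its own genotype. Genotype and time differ together here. With all arrays limma called no gene of the set and 0% of all genes, with 3 of the 10 at an unadjusted p under 0.05. Without wild-type oil replicate 1, Tnf (difference of responses 2.87 ± 0.27, adjusted p = 0.000162) and Il1a (2.19 ± 0.33, adjusted p = 0.032) were called, against 0.0163% of all genes called higher. The Tnf difference from oil was 2.44 ± 0.21 after BP at 6 h in the wild type and -0.43 ± 0.17 after BP at 12 h in Cyp1a1-null marrow. With the slide block and without that replicate, Tnf alone of the 10 was called (2.85 ± 0.40, adjusted p = 0.0306). With the block and all arrays, Tnf stood at 2.13 ± 0.81 and was not called. The response to DMBA in Cyp1b1-null marrow did not differ from that in the wild type past the threshold in any of the 10 genes, against 0.00817% and 3.04% of all genes. In each fit 1 gene, Il1a, had an unadjusted p under 0.05, with a difference of -1.06 ± 0.36 with all arrays.

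The genes whose means over the 10 groups ran most like the mean of the set were Ccrl2, a chemokine-binding receptor (Pearson r = 0.956), Nfkbiz, an atypical nuclear inhibitor of NF-kB (0.938), and the uncharacterised transcript 1700065D16Rik (0.934). Trib1, a pseudokinase (0.918), and Ifnb1, interferon beta (0.903), came next. With wild-type oil replicate 1 left out, Ccrl2 (0.966), Nfkbiz (0.949), Trib1 (0.933), Cdk5r1 (0.927) and Ifnb1 (0.926) led. The correlations run over 10 group means that share the red-channel pool, and are given as a description. Among the members themselves, the correlation of each gene with the mean of the set (itself included) ran from 0.624 (Il1b) to 0.899 (Cxcl10) with all arrays.

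Genes of the wider pathway were called in part of the comparisons. Of all 24468 genes, 0.192% were called higher after BP than in oil with all arrays, and 1.5% without wild-type oil replicate 1. Against the 12 h groups the shares were 0.143% and 2.05%. Called lower were 133 and 580 genes against oil and 39 and 643 against the 12 h groups. These values are the background for this and all later gene lists. Of 22 NF-kB feedback and co-induced genes, 0 were called by limma after BP at 6 h against oil with all arrays (4 at an unadjusted p under 0.05) and 8 were called higher without wild-type oil replicate 1; against the 12 h groups the counts were 1 and 6. Nfkbiz had ratios of 3.50 and 3.18 after BP, against 3.49, -0.06 and 0.49 in oil, and rose by 3.12 ± 0.34 without that replicate (adjusted p = 0.000686), against 2.03 ± 0.68 with all arrays (adjusted p = 0.176). Ptgs2, which makes prostaglandin precursors, rose by 2.69 ± 0.42 against the 12 h groups with all arrays (adjusted p = 0.0196) and was called without oil replicate 1 too (adjusted p = 0.000833). The phosphatase Dusp1 and the cytokine-signalling inhibitor Socs3 rose by 2.17 ± 0.42 and 1.29 ± 0.16 against oil without oil replicate 1, while with all arrays they differed by 1.69 (adjusted p = 0.104) and 0.92 (adjusted p = 0.101) and were not called. Of the 5 NF-kB subunit genes limma called 0 in either comparison or fit, and 0 or 1 had an unadjusted p below 0.05. Wild-type oil replicate 1 lay above the 21 other arrays outside the BP group for 17 of the 22 feedback genes, against 21.3% of all genes. It did so for 13 of 19 immediate early genes and 4 of 21 interferon-stimulated genes. With slide as a random block hardly any of all genes was called against oil, as given above.

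Of 19 immediate early genes, 1 was called higher against oil with all arrays, the transcription factor Maff (1.34 ± 0.27, adjusted p = 0.0316), and 9 without oil replicate 1, among them Egr2 (2.55 ± 0.30) and Egr1 (2.34 ± 0.63). With all arrays Egr2 differed by 1.75 (adjusted p = 0.134) and Egr1 by 1.70 (adjusted p = 0.257). Against the 12 h groups limma called 0 with all arrays (10 at an unadjusted p under 0.05) and 11 without that replicate. Of 21 interferon-stimulated genes, 4 were called higher against oil with all arrays and 6 without oil replicate 1, and 2 and 10 against the 12 h groups. Irf7, a transcription factor of the interferon response, had ratios of 1.07 and 1.59 after BP, against -0.23, 0.25 and 0.28 in oil, and Mx1, an antiviral GTPase, had 0.56 and 0.60, against -0.06, -0.25 and -0.07. Neither gene was high on wild-type oil replicate 1, and both rose with all arrays, by 1.23 ± 0.19 (adjusted p = 0.0119) for Irf7 and 0.71 ± 0.11 for Mx1 (adjusted p = 0.0126).

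**Figure D4:**
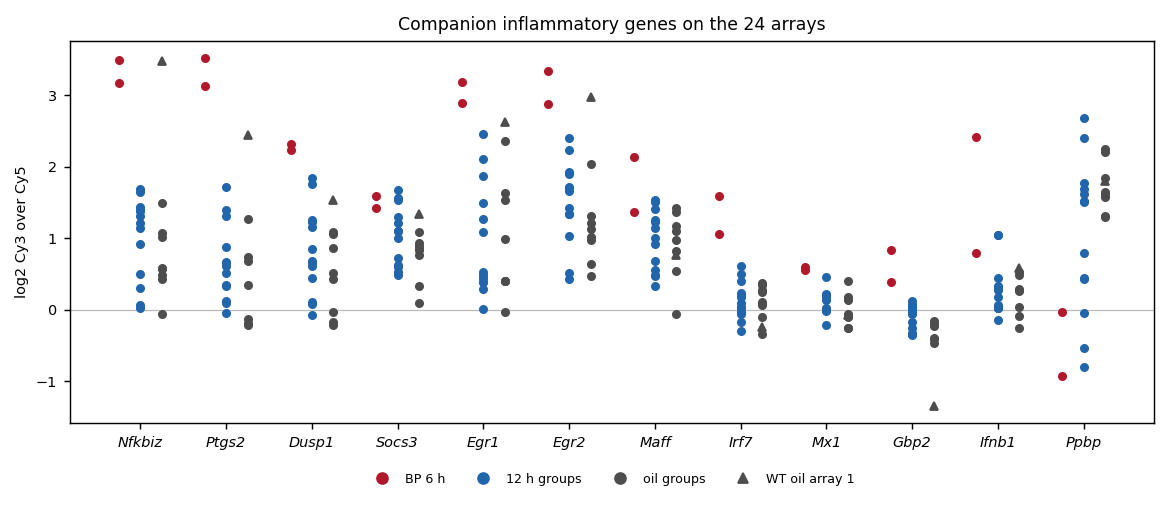
Log2 ratio over the pool on the 24 arrays for genes of the wider pathway, interferon-stimulated genes and a platelet chemokine, in the colours of the plot of the 10 genes. Nfkbiz, Ptgs2 and Egr1 are high after BP and on wild-type oil replicate 1 (triangle), Irf7 and Mx1 are highest on the BP arrays, and Ppbp is lowest after BP and TCDD; Ptgs2 has no value on wild-type oil replicate 2.

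Most other chemokine and cytokine genes were not called. Of 23 other chemokines tested, with all arrays Cxcl16 was higher after BP than in oil (1.03 ± 0.21, adjusted p = 0.0338) and Ppbp, the platelet chemokine, was lower, by -2.07 ± 0.44 (adjusted p = 0.0402). Without oil replicate 1, 4 were higher and 1 lower, and against the 12 h groups 0 and 0 with all arrays and 1 and 2 without it. Of 23 other cytokines, Csf1, the macrophage growth factor, was higher with all arrays (0.76 ± 0.16, adjusted p = 0.0402) and 5 without oil replicate 1, among them Ifnb1 (1.77 ± 0.37) and the anti-inflammatory Il10 (1.02 ± 0.27), neither of which was called with all arrays (1.52, adjusted p = 0.065, and 0.91, adjusted p = 0.107). Against the 12 h groups 1 and 6 were higher. Of 16 receptor genes limma called 0 in both comparisons with all arrays (3 against oil and 2 against the 12 h groups at an unadjusted p under 0.05) and 1 higher in each without that replicate. Of 12 sensor and processing genes, Tlr4, the receptor of bacterial endotoxin, was lower after BP than in oil by -1.20 ± 0.23 with all arrays (adjusted p = 0.0298) and by -0.94 ± 0.20 without oil replicate 1 (adjusted p = 0.016). Tlr7 rose without that replicate (0.93 ± 0.14) and was not called with all arrays (0.52, adjusted p = 0.337).

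Markers of marrow cells give the setting of these values. Of 14 monocyte and macrophage markers, Msr1, a scavenger receptor, was the one called higher after BP than in oil in both fits, and their mean ratio was 0.45 and 0.47 on the BP arrays, against 0.15 to 0.28 in oil and -0.01 to 0.90 in the 12 h groups. Of 11 neutrophil markers limma called 0 against oil with all arrays (1 had an unadjusted p below 0.05) and 1 was higher without oil replicate 1; their mean ratio was 0.45 and 0.69 after BP, against -0.29 to 4.73 in oil. Of 6 B cell, 6 T and NK cell, 6 stroma and bone and 5 liver genes, limma called 0 against oil in either fit, with 1 or 2 of each list at an unadjusted p under 0.05. Of 6 megakaryocyte and platelet genes all had lower ratios after BP, and 1 (Ppbp) fell with all arrays and 2 (Ppbp and Treml1) without oil replicate 1. The part of cell make-up in the differences of the 10 genes was not tested.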

How the data were processed

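Intensity values were deposited by the authors as Agilent Feature Extraction output, 1 file an array, per the file headers (version 9.1.3.1 on 20 arrays and 10.7.3.1 on 4). Log2 values of the authors' own comparisons were deposited as well. The submitters' processing notes name limma without saying how it was used. Groups were taken from the labels. Control spots were left out, mean signals were background-corrected (normexp, offset 50), normalised by loess within each array, averaged over spots of a probe and turned to log2 of Cy3 over Cy5. A gene was represented by its brightest probe and kept if Cy3 was well above background on at least 3 arrays. Probe names came from a RefSeq table (GRCm38.p6) through the accession for 26888 probes, the current symbol for 5025 and a synonym for 832, while 8429 kept the name that the file gave.

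limma 3.58.1 (R 4.3.3, statmod 1.5.0, with data.table in version 1.17.8) fitted 1 mean per group over 24 arrays, and again without wild-type oil replicate 1, with Benjamini-Hochberg adjustment over all genes and calls at an adjusted p under 0.05. The number of arrays limits the precision. On simulated data for BP at 6 h against oil (24209 genes), 61% of changes of 1 log2 unit and 89% of changes of 2 were recovered, and 77% and 98% without that replicate. Of the unchanged genes 13 were called, and 11 without that replicate. The simulated noise was independent between arrays and had the same spread on every array for a gene. It held no slide effect and no array that stood apart. These shares therefore do not cover the likeness of arrays on the same slide, as with both BP arrays. They also do not cover the shift of the oil mean by wild-type oil replicate 1 in the fit of all 24 arrays.

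The genes and lists were chosen with earlier results of these data known. Named beside the 10 genes are up to 4 genes of each list with the smallest adjusted p, the 8 genes most correlated with the mean profile of the set, and Cyp1a1 and Cyp1b1. Alternatives changed the background correction, signal, filter, probe rule, channel, slide or replicate block and the arrays used.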

Additional observations from a re-analysis of the deposited data

Results flagged for a closer look

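The response to BP at 6 h in the wild type differed from the response to BP at 12 h in Cyp1a1-null marrow for 2 genes, by a test of the difference itself in limma without wild-type oil replicate 1. The difference of responses was 2.87 ± 0.27 (log2) for Tnf (adjusted p = 0.000162) and 2.19 ± 0.33 for Il1a (adjusted p = 0.032). With all 24 arrays the values were 2.03 ± 0.68 for Tnf (adjusted p = 0.361) and 2.37 ± 0.34 for Il1a (adjusted p = 0.077). Time, genotype, slide and, for part of the arrays, scanner software differ together here and cannot be told apart.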

How the results depend on the processing

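Numbers below are counts of called genes among the 10, by limma. Calls over all genes are given beside them only for part of the comparisons with arrays left out in turn. The other counts cannot be read against that background. No background subtraction gave 0 for Cyp1a1-null oil against wild-type oil and 0, 1, 0, 1 and 1 for BP at 6 h against Cyp1a1-null BP, Cyp1b1-null DMBA, DKO BP, wild-type DMBA and TCDD marrow, with 1 for TCDD against oil. The scanner's processed signals gave 0, then 0, 0, 0, 1 and 1 in the same order, 1 for TCDD against oil and 0 against the mean of the 12 h groups. The mean of all probes gave 0 for Cyp1a1-null oil and 0 against Cyp1a1-null and DKO BP marrow. Cy3 alone gave 2 for Cyp1a1-null oil, 6 for BP against TCDD and 1 for DMBA against TCDD. Slide as a random block gave 0 in each of these comparisons.

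Without wild-type oil replicate 1, processed signals gave 5 for BP against oil, 4 against Cyp1a1-null BP, 1 against Cyp1b1-null DMBA, 2 for Cyp1b1-null DMBA against its oil, 2 and 1 for Cyp1b1-null and DKO oil, 1 for the BP responses, 2 for DMBA against TCDD and 4 for TCDD against oil. The slide block gave 1 for BP against oil, 1 against DMBA, 1 for the BP responses and 0 otherwise. Chosen after seeing the data, Cy3 alone gave 6 against oil, 5 against the 12 h mean, 4, 5, 2, 4 and 7 against the single 12 h groups in the order above, 4 for Cyp1a1-null oil, 2 for the BP responses, 2 for DMBA against TCDD and 4 for TCDD against oil. Also chosen then, the mean of all probes gave 8, 7, then 6, 5, 4, 8 and 7, with 2 for each knockout oil group, 1 for the BP responses and 1 for DMBA against TCDD.

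Of the 8 most correlated genes, 4 were shared with no background subtraction, 4 with processed signals and 2 with Cy3 alone; without that array 2, 4, 2 and 4 were shared (processed signals, slide block, Cy3 alone, mean of probes).

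Leaving out each array in turn gave 2 to 8 called genes for BP against oil, 0 to 7 against the 12 h mean, 0 to 8 against DMBA and against TCDD, 1 to 6 against Cyp1b1-null DMBA, 0 to 6 against Cyp1a1-null BP and 0 to 5 against DKO BP. Over all 24468 genes the calls ran from 6 to 1516 against oil and from 6 to 1145 against the 12 h mean. They ran from 0 to 406 against DMBA, 10 to 1619 against TCDD and 9 to 1336 against Cyp1b1-null DMBA. Against Cyp1a1-null BP and DKO BP they ran from 2 to 2840 and from 7 to 1370. Among the 10, leaving out arrays gave 0 to 3, 0 to 2 and 0 to 2 for Cyp1a1-null, Cyp1b1-null and DKO oil, 0 to 2 for the BP responses, 0 to 1 for DMBA against TCDD and for Cyp1a1-null BP against its oil, 0 to 0 for the remaining comparisons, and 4 to 8 shared correlated genes. For the 3 oil comparisons the calls over all genes ran from 107 to 5057, 206 to 7255 and 212 to 1642.

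Signs turned in these cases, and the cause was not tested. Ccl3 in Cyp1b1-null against wild-type oil, -0.26 with all arrays, was 1.10 without wild-type oil replicate 1, and then 1.01 with processed signals, 0.67 with the slide block, 0.018 with Cy3 alone and 1.10 with the mean of probes (-0.97 to 1.10 over the arrays left out in turn). BP against oil turned without oil replicate 2 or 3 for Ccl3 (-0.29 and -0.24, up to 1.78 over the arrays) and Ccl4 (-0.50 and -0.59, up to 1.86), and for Ccl4 without BP replicate 1 (-0.39). Il6 in BP against Cyp1b1-null DMBA was -0.13 with processed signals, with or without that array. Tnf in DKO against wild-type oil was -0.071 with the replicate block and -0.24 and -0.22 without oil replicate 2 or 3, up to 1.03 over the arrays. The replicate block gave 2 against Cyp1a1-null BP and 0 against DKO BP and kept the other counts within 1.5 times; same-numbered samples share only a number (82 pairs of deviations, r from -0.254 to 0.336). The lone DKO oil array could not be left out of its own comparisons. Signal over background limits Cxcl3, which has only a bound where a whole group was not above background. In Cy5, Cxcl3 and Il1a were each well above background on 19 of 24 arrays, so their other ratios rest on a dim pool signal.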

Other observations

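Other marrow markers had higher ratios after BP at 6 h in part of the comparisons. Of 6 erythroid genes limma called 0 against oil with all arrays (2 had an unadjusted p below 0.05) and 3 higher without wild-type oil replicate 1, and 2 higher against the 12 h groups in that fit. Of 5 mast cell, basophil and eosinophil genes 1 was higher against oil and 3 against the 12 h groups without that replicate. Of 5 dendritic cell genes limma called 0 against oil in both fits (0 and 2 had an unadjusted p below 0.05) and 2 higher against the 12 h groups without that replicate. Of 6 megakaryocyte and platelet genes 4 were lower than in the 12 h groups in that fit.

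In the authors' deposited table, whose values are log2 differences without errors here, BP at 6 h against the wild-type control stood at 3.83 for Cxcl2, 3.38 for Cxcl3, 3.22 for Il1a, 2.94 for Cxcl10, 2.45 for Tnf and 2.19 for Il6. Some 12 h values there were also high. TCDD against the same control stood at 2.45 for Il1a, 2.09 for Cxcl2 and 1.89 for Cxcl3, down to 0.08 for Ccl4. DMBA in Cyp1b1-null marrow against its oil stood at 3.25 for Cxcl3 and 1.82 for Cxcl2, and at 0.17 for Il1a. These Il1a values are of the probe used here. The second Il1a probe stood at 0.03 in that comparison, at 2.17 for BP and at 1.57 for TCDD. Wild-type DMBA ran from -0.22 (Tnf) to 1.43 (Cxcl3). Over all matched rows, the authors' values for BP at 6 h against the wild-type control were set against the fits here. Their Pearson correlation was 0.681 without wild-type oil replicate 1 and 0.335 with all 24 arrays. For the other comparisons with wild-type oil it ran from 0.648 (DMBA) to 0.809 (Cyp1b1-null oil) without that replicate. With all arrays it ran from 0.192 to 0.632 for the same comparisons. The authors' labels name 3 wild-type control arrays. These correlations run across genes, which are not independent replicates.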
